A study of Mus musculus with 8 samples.

Results

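The transcription factors that mark the eye field and the anterior forebrain were followed across 8 arrays of mouse neurospheres: Six3, Six6, Rax, Vax1, Vax2, Fezf1, Fezf2, Otx1 and Otx2. Each was read by the non-control probe that carries its symbol and, where it had several, by the one with the highest mean intensity. These are 9 of the 35513 genes named on the array, and 27120 genes passed the filter on dim probes. All 9 were well above background on all 8 arrays, so the filter removed none of them.

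The source was EB3, an embryonic stem cell line of the mouse. Its embryoid bodies, made in the presence of the BMP inhibitor Noggin, were dissociated on day 6 and infected with lentivirus at an MOI of about 25. Cells were then grown in FGF2 at 20 ng/ml, and as floating balls of neural progenitors, and RNA was taken from primary spheres (P0) and from tertiary spheres (P2), which had been dissociated and regrown. At each passage there was 1 culture with a control shRNA against luciferase, 1 with an shRNA against Nr2f1 and Nr2f2, 1 with a control miRNA and 1 with miR-17. Each of the 8 groups thus had 1 array, all cells had passed through Noggin and lentivirus, and a difference between arrays of 1 passage had no replicate check.

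The anterior end of the neural plate gives rise to the telencephalon, the hypothalamus and, from the eye field between them, the retina and optic stalk. Otx2 and Otx1 set out forebrain and midbrain, Six3 represses Wnt signalling at the anterior border, and Rax and Six6 act within the eye field and later in hypothalamus and retina. Vax1 and Vax2 pattern the ventral eye and optic stalk, and the zinc finger repressors Fezf1 and Fezf2 act in early forebrain, with Fezf2 later specifying deep-layer projection neurons. Nr2f1 and Nr2f2 (the COUP-TF genes) are orphan nuclear receptors of the same tissues. The shRNA against them and the miRNA miR-17 were each delivered from a lentiviral vector.

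The 250 bases before the transcription start are shown for Six6, Vax1, Fezf1 and Fezf2, the 4 genes that differed most between the Nr2f1/2 shRNA and control shRNA arrays at P2. They are from RefSeq (GRCm38.p6), on the strand of the gene: chr12:72939632-72939881 (plus) for Six6, chr19:59170398-59170647 (minus) for Vax1, chr6:23248265-23248514 (minus) for Fezf1 and chr14:12345866-12346115 (minus) for Fezf2. Capitals mark the CCAAT box, a general promoter element, on either strand (CCAAT or ATTGG).
Six6: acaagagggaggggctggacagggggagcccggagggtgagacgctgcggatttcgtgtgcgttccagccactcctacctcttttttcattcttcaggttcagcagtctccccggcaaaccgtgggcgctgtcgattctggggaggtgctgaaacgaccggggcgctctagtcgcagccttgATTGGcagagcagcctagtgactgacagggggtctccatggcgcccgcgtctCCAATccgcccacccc
Vax1: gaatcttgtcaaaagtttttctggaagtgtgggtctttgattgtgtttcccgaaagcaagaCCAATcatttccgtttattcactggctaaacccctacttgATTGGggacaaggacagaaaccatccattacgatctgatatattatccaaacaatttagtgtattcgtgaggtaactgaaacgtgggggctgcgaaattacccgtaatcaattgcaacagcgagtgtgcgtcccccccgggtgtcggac
Fezf1: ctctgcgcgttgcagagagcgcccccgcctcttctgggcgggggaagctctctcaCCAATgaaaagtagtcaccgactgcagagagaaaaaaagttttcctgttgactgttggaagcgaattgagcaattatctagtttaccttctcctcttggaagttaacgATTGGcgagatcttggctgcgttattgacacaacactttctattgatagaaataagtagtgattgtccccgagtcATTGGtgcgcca
Fezf2: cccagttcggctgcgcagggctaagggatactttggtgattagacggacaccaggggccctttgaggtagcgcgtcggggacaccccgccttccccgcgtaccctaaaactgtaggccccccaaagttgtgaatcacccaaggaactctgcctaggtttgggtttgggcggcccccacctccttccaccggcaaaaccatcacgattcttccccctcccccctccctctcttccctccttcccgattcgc
The CCAAT box was searched for after the sequences had been seen. It had 2 matches in the Six6 window, 2 in Vax1, 3 in Fezf1 and 0 in Fezf2, and 33.8% of all 32817 RefSeq windows of this length hold it. The nuclear receptor half-site AGGTCA (or TGACCT), the homeodomain core TAATTA and the Otx type site TAATCC (or GGATTA) were searched on both strands as well, and none of them stood in these 4 windows. They occur in 14%, 4.85% and 6.25% of all windows. Six3 and Otx2, which are not among these 4 genes, were searched too. The Six3 window held 3 CCAAT matches. The Otx2 window at chr14:48665110-48665359 held 3 TAATTA matches and 1 TAATCC match. Other Otx2 windows held 1 TAATTA match (chr14:48667645-48667894) and 1 CCAAT match (chr14:48667509-48667758). The matches were thus not particular to the genes shown.

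The miRNA that was delivered is shown with the seed, bases 2 to 8, in capitals. The labels do not name an arm, so both mature forms of RefSeq (GRCm38.p6, chr14:115043684-115043706 and chr14:115043721-115043742, plus strand) are given.
mmu-miR-17-5p: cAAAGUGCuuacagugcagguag
mmu-miR-17-3p: aCUGCAGUgagggcacuuguag
The 2 arms have different seeds.

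Between 57.9% and 67.9% of non-control spots were well above background per array, and none was saturated. In the Nr2f1/2 shRNA culture Nr2f1 was lower than in control shRNA by 0.79 on the log2 scale at P0 and by 1.17 at P2, and Nr2f2 by 0.51 and 0.90. Averaged over both passages, Nr2f2 differed from control shRNA by -0.70 with Nr2f1/2 shRNA and by -1.16 with control miRNA. Against control miRNA it was thus not lower on average. For Nr2f1 the same values were -0.98 and -0.16. None of these contrasts was called. All 11 neural stem and progenitor markers, Sox2, Nes and Pax6 among them, were well above background on every array. Of 8 astrocyte markers 5 or 6 were above background on the P0 arrays and all 8 on the P2 arrays, and all 7 neuron markers on the array were above background throughout.

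Levels below are log2 intensities minus the array's 75th percentile, so a level of 0 is the upper quartile of that array, and each probe was compared only with itself. The fit used for tests, limma with condition and passage as terms, also gives each gene a residual SD. It served here as a yardstick for gaps between arrays. No group had a replicate, so this SD also holds any difference between conditions in the change with passage. It is thus not a replicate spread, and such differences make it larger. Shifts from the choice of processing are not part of it. A gap below the residual SD is therefore not shown to be absent.

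**Figure D1:**
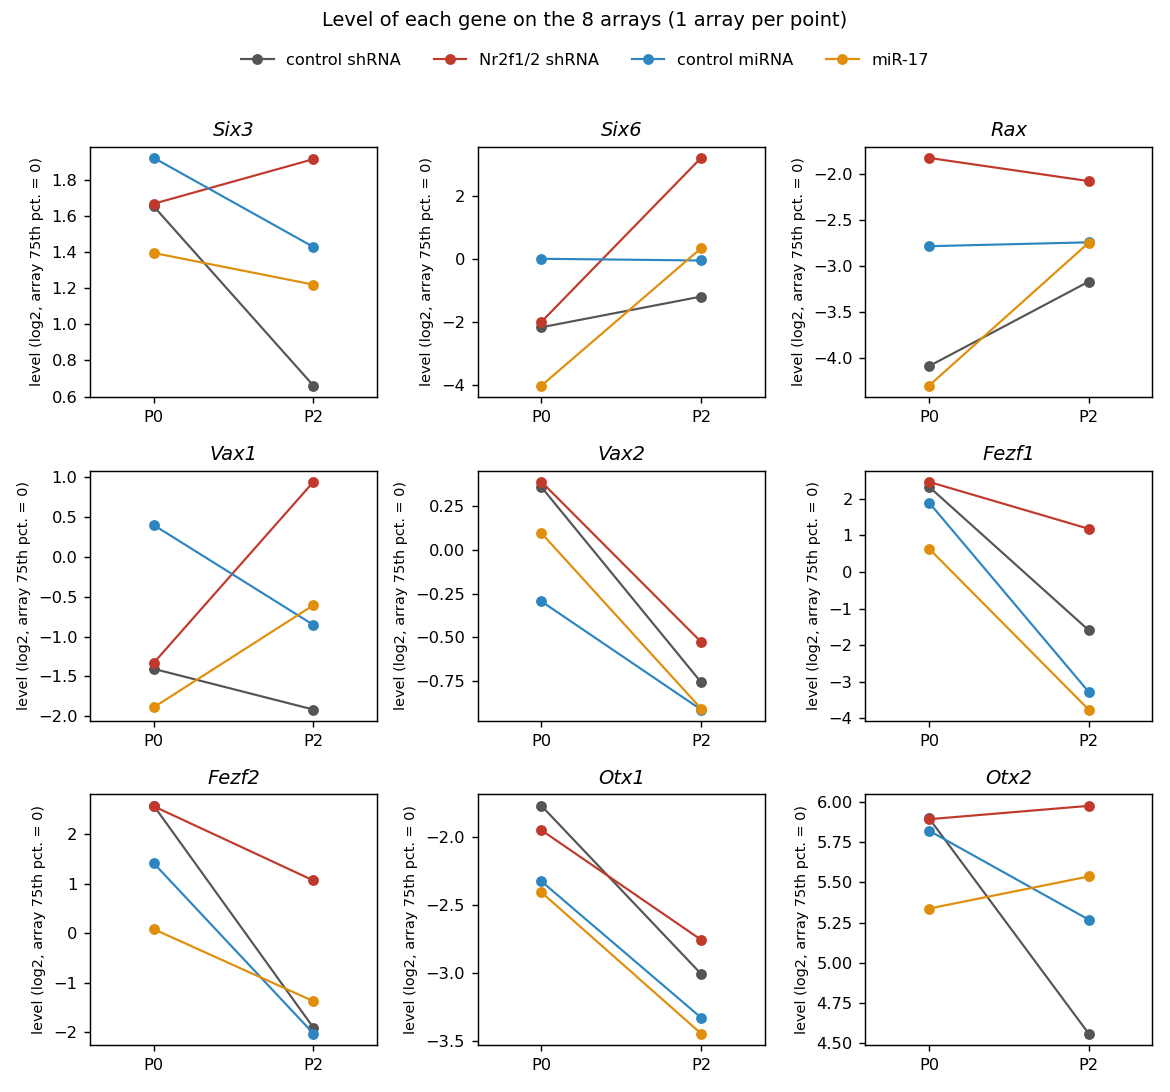
Level of each of the 9 genes at P0 and P2 (log2 intensity, 0 is the array's 75th percentile), 1 panel per gene with its own vertical scale and 1 point per array; lines join the arrays of 1 condition and carry no error, since n is 1. Six6 on the Nr2f1/2 shRNA array at P2 stands at 3.22, above the other 7 arrays, and all P2 points of Vax2 and Otx1 lie below all their P0 points.

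Six3 and Six6 are sister homeobox genes. Six3 was read at chr17:86023349-86023408 (mm9, plus strand). At P0 it stood at 1.65 with control shRNA, 1.67 with Nr2f1/2 shRNA, 1.92 with control miRNA and 1.39 with miR-17. The P2 levels were 0.66, 1.91, 1.43 and 1.22 in the same order. The other 7 arrays thus lay close together and control shRNA at P2 lay below them, 0.56 under its neighbour, the only gap in the order larger than the residual SD of 0.37. A second Six3 probe, at chr17:86030070-86030129, was well above background on 1 array only, Nr2f1/2 shRNA at P2, and gives no order.

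Six6, read at chr12:74045825-74045884 (mm9, plus strand), covered a far wider range. Its P0 levels were -2.17 with control shRNA, -2.00 with Nr2f1/2 shRNA, 0.0090 with control miRNA and -4.03 with miR-17. At P2 they were -1.20, 3.22, -0.05 and 0.34. In intensity units the lowest and highest arrays were 32.3 (miR-17 at P0) and 9942 (Nr2f1/2 shRNA at P2). The highest array was 2.88 above the next and the lowest 1.86 below the next, both more than the residual SD of 1.81, and the 6 arrays between them differed from their neighbours by less.

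Rax, the retina and anterior neural fold homeobox gene, had the dimmest readings, with intensities of 26.9 to 252. Its probe lies at chr18:66094331-66094390 (mm9, minus strand). The P0 levels were -4.09 with control shRNA, -1.83 with Nr2f1/2 shRNA, -2.79 with control miRNA and -4.30 with miR-17, and the P2 levels -3.17, -2.08, -2.74 and -2.75. Both Nr2f1/2 shRNA arrays were above the other 6, and the control shRNA and miR-17 arrays of P0 were the 2 lowest. The steps after the second array (0.66) and after the sixth (0.92) exceeded the residual SD of 0.58.

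Vax1 was read at chr19:59240745-59240804 (mm9, minus strand). At P0 it stood at -1.41 with control shRNA, -1.33 with Nr2f1/2 shRNA, 0.40 with control miRNA and -1.89 with miR-17. At P2 the levels were -1.92, 0.94, -0.85 and -0.61. Nr2f1/2 shRNA at P2 and control miRNA at P0 were the highest arrays, yet no gap between neighbours in the order exceeded the residual SD of 1.14. Differences between conditions in the change with passage are part of that SD, so this does not show that the arrays were alike. The second Vax1 probe, at chr19:59240677-59240736, gave a difference of 2.70 between the shRNA arrays at P2, against 2.85 for the first.

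Vax2, at chr6:83688239-83688298 (mm9, plus strand), was lower on every P2 array than on any P0 array. Its P0 levels were 0.36 with control shRNA, 0.39 with Nr2f1/2 shRNA, -0.29 with control miRNA and 0.10 with miR-17. The P2 levels were -0.76, -0.52, -0.91 and -0.91. The residual SD was 0.15, and 5 of the 7 gaps in the order were larger. The gap between the passages was 0.23, and the largest gap, 0.39, lay within P0.

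Fezf1, at chr6:23195360-23195419 (mm9, minus strand), had the widest spread between P2 arrays, 4.95. Its P0 levels were 2.33 with control shRNA, 2.47 with Nr2f1/2 shRNA, 1.90 with control miRNA and 0.64 with miR-17. At P2 it was at -1.59, 1.18, -3.28 and -3.76. The Nr2f1/2 shRNA array of P2 thus lay among the P0 arrays, while the other 3 P2 arrays lay below all of them by at least 2.23, more than the residual SD of 1.19.

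The same layout held for Fezf2, read at chr14:13175057-13175116 (mm9, minus strand). The P0 levels were 2.57 with control shRNA, 2.56 with Nr2f1/2 shRNA, 1.41 with control miRNA and 0.08 with miR-17. The P2 levels were -1.90, 1.06, -2.02 and -1.37. Again Nr2f1/2 shRNA at P2 was above miR-17 at P0, and the other 3 P2 arrays were at least 1.45 below every P0 array, more than the residual SD of 1.06. The gaps between those 3 lowest arrays were under the residual SD.

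Otx1, at chr11:21895767-21895826 (mm9, minus strand), had P0 levels of -1.77 with control shRNA, -1.95 with Nr2f1/2 shRNA, -2.33 with control miRNA and -2.41 with miR-17. The P2 levels were -3.01, -2.75, -3.33 and -3.44. Every P2 array was below every P0 array, and both miRNA arrays were below both shRNA arrays at either passage. At P2 the second order depended on processing. Control miRNA minus control shRNA was -0.32 there, but 0.05 after normexp and -0.06 after quantile normalization. Its residual SD, 0.12, was the smallest of the 9.

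Otx2, at chr14:49277855-49277914 (mm9, minus strand), was bright on every array, with intensities from 21420 to 67020 and none saturated. The P0 levels were 5.90 with control shRNA, 5.89 with Nr2f1/2 shRNA, 5.82 with control miRNA and 5.34 with miR-17, and the P2 levels 4.56, 5.98, 5.27 and 5.54. As for Six3, control shRNA at P2 was the lowest array, 0.71 under the next, and this was the only gap beyond the residual SD of 0.50.

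Passage was the only factor with pairs of arrays in all 4 conditions. The P0 arrays lay in rows 1 and 2 of the slide and the P2 arrays in rows 3 and 4. Passage and slide row thus cannot be told apart. From P0 to P2 Fezf1 fell by 3.70 on the log2 scale (SE 0.66, adjusted p = 0.0487, limma with Benjamini-Hochberg adjustment over all genes tested). Otx1 fell by 1.02 (SE 0.18, adjusted p = 0.0475 in limma). Both were lower in 4 of 4 pairs. That is 2 of 9 genes called lower and 0 called higher, against 2.36% of all genes called lower and 2.61% called higher. The median over the 9 was -0.40 and over all tested genes -0.21.

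Vax2 and Fezf2 were lower in 4 of 4 pairs too but missed the threshold, with -0.91 for Vax2 (SE 0.19, adjusted p = 0.0545) and -2.71 for Fezf2 (SE 0.59, adjusted p = 0.0581) in limma. Of all genes 32.1% were lower in 4 of 4 pairs, and 15.2% had every P2 array below every P0 array, as Vax2 and Otx1 did. For Fezf1 the per-condition differences were -3.92 with control shRNA, -1.28 with Nr2f1/2 shRNA, -5.18 with control miRNA and -4.40 with miR-17. For Fezf2 they were -4.47, -1.49, -3.43 and -1.45. The smallest loss of Fezf1 was thus in the Nr2f1/2 shRNA pair, while for Fezf2 that pair and the miR-17 pair were alike.

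The other 5 genes had no call in limma. Six6 was 2.63 higher at P2 (SE 0.99, adjusted p = 0.115), the mean of 5.22 in the Nr2f1/2 shRNA pair, 4.38 in the miR-17 pair, 0.98 with control shRNA and -0.05 with control miRNA. Vax1 was 0.45 higher (SE 0.63, adjusted p = 0.619), with 2.27 and 1.28 in the Nr2f1/2 shRNA and miR-17 pairs and -0.51 and -1.25 in the 2 control pairs. Its fitted value turned to -0.16 without the Nr2f1/2 shRNA pair. Rax was 0.56 higher (SE 0.35, adjusted p = 0.277), Six3 0.35 lower (SE 0.26, adjusted p = 0.343) and Otx2 0.40 lower (SE 0.32, adjusted p = 0.372).

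**Figure D2:**
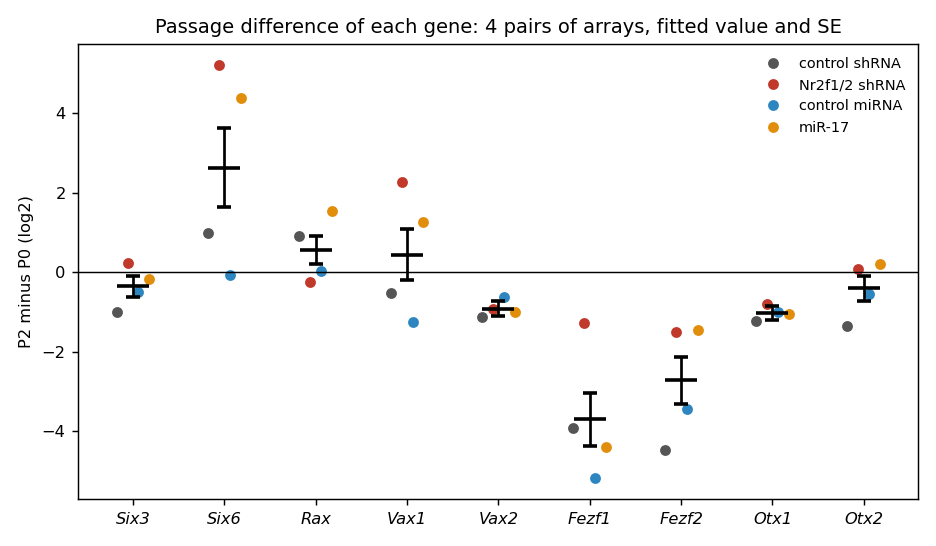
Difference between P2 and P0 (log2) for each gene; coloured points are the 4 conditions (1 pair of arrays each), and the black bar with whiskers is the limma value with its SE. All 4 points of Vax2, Fezf1, Fezf2 and Otx1 lie below 0, while the points of Six6 and Vax1 lie highest in the Nr2f1/2 shRNA and miR-17 pairs.

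The passage calls changed with the arrays used. With condition as a block, leaving out 1 array also takes its partner's information on passage out of the fit. The P0 and P2 arrays of a condition therefore gave the same values. Each case below is thus 1 left-out pair, with fewer residual degrees of freedom. Without any 1 of the 6 arrays other than Nr2f1/2 shRNA (control shRNA, miR-17 or control miRNA, either passage) limma called 0 genes, these included, with Fezf1 between -3.20 and -3.62 and Otx1 between -0.95 and -1.02. Without either Nr2f1/2 shRNA array it called 4783 genes and 3 of the 9: Fezf1 at -4.50 (adjusted p = 0.0136), Otx1 at -1.09 (0.0418) and Fezf2 at -3.12 (0.0431). Quantile normalization moved the median of all genes from -0.21 to -0.02, and Otx1 was then -0.67 (adjusted p = 0.0944, limma), so relative to the common shift its difference was smaller and no longer called. Along the same passage the summed linear level of the 8 astrocyte markers went from a range of 4.47 to 8.63 at P0 to 14.4 to 289 at P2, and 4 of the 8 were called higher. For the 10 cell cycle genes the sum went from 100.1 to 150.0 at P0 to 22.6 to 105 at P2, with a median difference of -2.58 and 0 of 10 called. The P2 array at 14.4 and 105 was Nr2f1/2 shRNA, on which Fezf1 and Fezf2 were the highest of the P2 arrays. Their part in the result was not tested, and in such bulk RNA fewer cells of a type and less RNA per cell cannot be told apart.

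Nr2f1/2 shRNA against control shRNA was compared at each passage. At P2, 7 of the 9 genes were at least 2-fold higher and none lower, where 7.51% of all genes were higher and 9.38% lower by that much. Six6 differed most, by 4.42 on the log2 scale (21.4-fold), followed by Fezf2 at 2.97 (7.82-fold), Vax1 at 2.85 (7.22-fold) and Fezf1 at 2.77 (6.84-fold). Otx2 (1.41), Six3 (1.25) and Rax (1.09) passed the limit less widely, and Rax was at 0.71 after normexp background correction. Otx1 (0.25) and Vax2 (0.23) did not, which leaves each of the Vax and Otx pairs with 1 member on either side. The median was 1.41 over the 9 genes and 0.07 over all genes.

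At P0 the shRNA pair differed little. Rax alone was past 2-fold, 2.26 higher, which is 1 of 9, where 1.78% of all genes were higher and 0.694% lower. Its spots were dim, and after normexp the difference was 1.28. The other 8 genes lay between -0.18 (Otx1) and 0.17 (Six6), and the median over the 9 was 0.03.

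Across both passages limma called no gene for the knockdown, with 517 of 27120 at an unadjusted p under 0.05. A second limma fit compared the P2 minus P0 difference of the Nr2f1/2 shRNA culture with the mean of that in both control cultures, not with control shRNA alone. It called no gene (1072 at an unadjusted p under 0.05, on 1 residual degree of freedom). For Six6 this contrast was 4.76 (SE 0.82, limma adjusted p = 0.9998), for Fezf1 3.27 (SE 0.87), for Vax1 3.15 (SE 0.75) and for Fezf2 2.46 (SE 0.82). The P2 differences above are therefore values of 1 pair of arrays.

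The control shRNA array of P2 was itself the lowest of all 8 for Six3, Vax1 and Otx2, so the same Nr2f1/2 shRNA array was also set against control miRNA at P2, a reference chosen after the data were seen. Then 4 of 9 genes were past 2-fold, all higher: Fezf1 by 4.46, Six6 by 3.27, Fezf2 by 3.09 and Vax1 by 1.79. The background for that reference was 15.8% higher and 17.2% lower. Otx2 was 0.71, Rax 0.66 and Six3 0.49 higher, under the limit. Six6, Vax1, Fezf1 and Fezf2 were thus past 2-fold against either control of P2. At P0 the same change of reference gave 3 of 9 past 2-fold, Six6 (-2.01) and Vax1 (-1.72) lower and Fezf2 (1.15) higher, against a background of 11.5% lower and 4.83% higher.

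**Figure D3:**
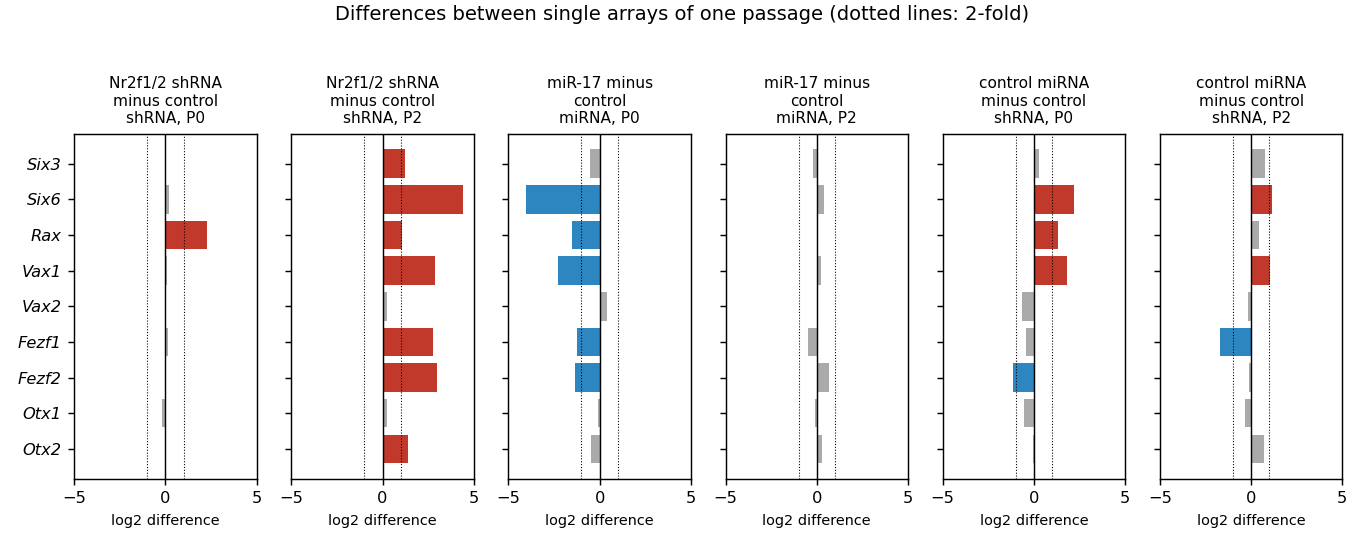
Log2 difference of each gene between single arrays of 1 passage, in 6 panels: Nr2f1/2 shRNA minus control shRNA, miR-17 minus control miRNA, and control miRNA minus control shRNA, each at P0 and P2; red and blue bars are at least 2-fold higher or lower, dotted lines mark 2-fold, and n is 1 array a side. The P2 knockdown panel has 7 red bars and the P0 miR-17 panel 5 blue ones, while the 2 control panels hold 4 and 3 coloured bars.

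The miR-17 arrays were read in the same manner, first at P0. Against control miRNA 5 of 9 genes were at least 2-fold lower and none higher, where 1.3% of all genes were lower and 3.2% higher. Six6 was lower by 4.04 (16.5-fold), Vax1 by 2.28 (4.86-fold), Rax by 1.51, Fezf2 by 1.33 and Fezf1 by 1.26. Six3 (-0.53), Otx2 (-0.48), Otx1 (-0.08) and Vax2 (0.39) stayed inside 2-fold. Both Six6 and Rax were dim on the miR-17 array (32.3 and 26.9 in intensity). After normexp the difference of Six6 was -2.52 and that of Rax -0.67.

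Set against control shRNA at P0, a reference chosen after the data were seen, the same miR-17 array was past 2-fold for 3 of 9: Fezf2 at -2.49, Six6 at -1.86 and Fezf1 at -1.69. The background for that reference was 3.62% lower and 17% higher. Vax1 was then -0.48 and Rax -0.21. The control miRNA array of P0 had the highest Vax1 of the P0 arrays, and the miR-17 array was the lowest of all 8 for Six6 and Rax.

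At P2 none of the 9 genes differed by 2-fold between miR-17 and control miRNA, where 1.53% of all genes were higher and 0.933% lower. The values ran from -0.49 (Fezf1) to 0.65 (Fezf2), with a median of 0.01. Against control shRNA at P2 instead, 3 of 9 were past 2-fold, Six6 (1.54) and Vax1 (1.31) higher and Fezf1 (-2.17) lower, where 7.46% of all genes were higher and 9.55% lower. limma called no gene for miR-17 over both passages (269 at an unadjusted p under 0.05) and none for its passage difference against the mean of both control cultures (294). That contrast was 3.92 for Six6 (SE 0.82, limma adjusted p = 0.9998).

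The 2 control cultures, which carried neither manipulation, also differed from each other, and these differences share their arrays with the comparisons above. At P0 control miRNA was past 2-fold above control shRNA for Six6 (2.18), Vax1 (1.80) and Rax (1.30) and below it for Fezf2 (-1.16), 4 of 9 genes against a background of 13.2% higher and 4.35% lower. At P2 it was above for Six6 (1.15) and Vax1 (1.06) and below for Fezf1 (-1.69), against 9.95% higher and 11.7% lower. After normexp Rax at P0 (0.73) and Vax1 (0.94) and Fezf1 (-0.89) at P2 were inside 2-fold. limma called no gene for this contrast (2599 at an unadjusted p under 0.05). Six3 (0.27) and Otx2 (-0.08) were close in the 2 control cultures at P0. At P2 control miRNA was above control shRNA by 0.77 for Six3 and 0.71 for Otx2, both inside 2-fold. With the mean of probes Six3 was at 1.01 there. The miRNA arrays lay in 1 column of the slide and the shRNA arrays in the other, so vector and column cannot be told apart.

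The knockdown pair at P2 was also read through lists of genes of the same and neighbouring regions. Of 14 hypothalamus and diencephalon genes 7 were at least 2-fold higher and 0 lower (median 1.33). Nkx2-1, which specifies ventral forebrain and was not well above background on the control shRNA array, was at least 45.4-fold higher, Isl1 was 4.84 higher and Hmx2 3.33. Of 17 telencephalon genes 7 were higher and 2 lower (median 0.88), Gsx2 (2.91) and Bcl11b (2.64) among the higher ones. For the eye field and retina list the count was 3 higher and 3 lower of 16 (median -0.04), with Tbx3 3.57 higher and Aldh1a1, a retinoic acid synthesising enzyme of the dorsal eye, lower by 2.28.

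Anterior signals and their antagonists had 6 of 14 higher and 2 lower (median 0.17). Fgf8, the signal of the anterior neural ridge, was 5.67 higher, Fgf15 3.94 higher, and the Wnt antagonist Sfrp5 lower by 4.35. Midbrain and isthmus genes had 0 of 14 higher and 3 lower, and hindbrain and spinal cord genes 0 of 9 higher and 3 lower. Among Groucho corepressors and the Eya and Dach cofactors of the Six3 family, 4 of 13 were higher and 1 lower, with Gmnn (geminin, also a cell cycle protein) at 2.78 and Dach1 at 2.02. Other homeobox genes related to the 9 had 1 of 13 higher, Six4 at 1.71.

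**Figure D4:**
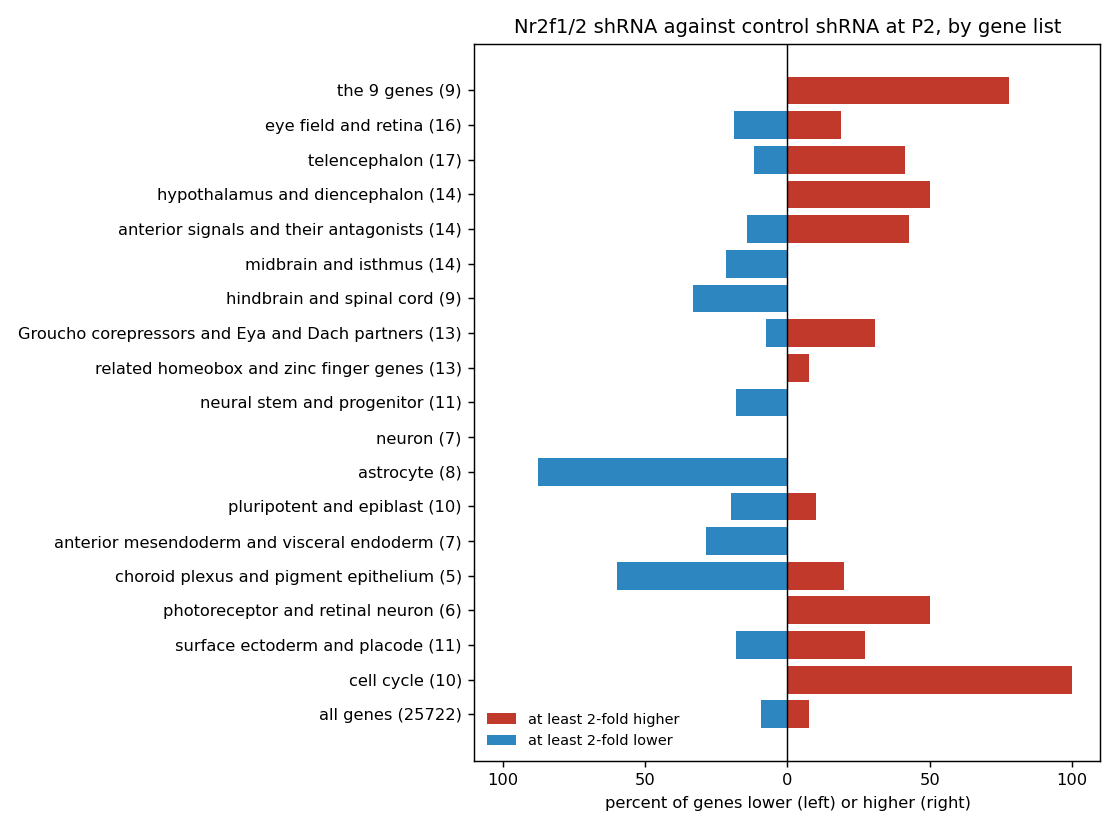
Percent of the genes of each list that were at least 2-fold higher (right, red) or lower (left, blue) on the Nr2f1/2 shRNA array than on the control shRNA array at P2; the number in brackets is the genes with a value, and n is 1 array a side. The 9 genes, the hypothalamus and telencephalon lists and the 10 cell cycle genes lie mostly to the right and the astrocyte markers to the left, beside 7.51% and 9.38% over all genes.

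The largest list differences of that pair were in markers of proliferation and glia. All 10 cell cycle genes were higher (median 2.49; their summed level was 26.9 with control shRNA and 105 with Nr2f1/2 shRNA). Of 8 astrocyte markers 7 were lower (median -3.41; summed 66.6 and 14.4), all 8 being well above background on both arrays. Neural stem and progenitor markers had 0 of 11 higher and 2 lower, and neuron markers 0 of 7 in either direction. Of photoreceptor and retinal neuron markers 3 of 6 were higher and 0 lower (summed 0.44 and 1.10), of surface ectoderm and placode markers 3 higher and 2 lower of 11, and of choroid plexus and pigment epithelium markers 1 higher and 3 lower of 5. Pluripotent and epiblast markers had 1 of 10 higher and 2 lower, and anterior mesendoderm and visceral endoderm markers 0 of 7 higher and 2 lower. The part of these markers in the result for the 9 genes was not tested.

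In the miR-17 pair of P0 the telencephalon list had 0 of 17 higher and 3 lower, Lhx2 (-1.25) and Tbr1 (-1.16) among them, while hindbrain and spinal cord genes had 4 of 9 higher and 0 lower, Hoxb2 by 2.66. Eye field and retina genes had 2 of 16 higher and 2 lower. Cell cycle genes were inside 2-fold, 0 of 10 either way with a median of -0.62 and sums of 150.0 and 100.1. With passage, limma called 8 of 17 telencephalon genes lower (median -2.18), among them Gsx2 (-5.13) and Tbr1 (-4.50), 3 of 16 eye field and retina genes lower (median -0.92) and 1 of 15 hypothalamus genes lower (median -0.37), with 0 higher in each. Of 10 tested hindbrain genes 1 was called higher, Egr2 at 4.48, and 1 lower.

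For each gene the 2 genes were sought whose profile over the 8 arrays, centred on its mean, lay closest, by root mean square distance on the log2 scale. Fezf2 was closest to Lhx2, a LIM homeobox gene of eye field and telencephalon (0.36), and then to Mecom (0.47). Fezf1 was closest to Bub1 (0.46) and Kif23 (0.46), which act in mitosis. Vax1 had Fzd8, a Wnt receptor, nearest (0.38), and then Cd1d1 (0.50). Otx2 lay closest to Epha4, an ephrin receptor (0.13), and Adat2 (0.15), and Six3 to Pdlim1 (0.07) and Prdx4 (0.11).

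For Six6 the nearest were Cyp4f15 (1.13) and Trhr (1.15). The distance is not scaled to a gene's own range, so it tends to be larger for a wide profile such as that of Six6. It tends to be small for a flat one, and the distances of different genes are not ranked here. Otx1 was nearest to Cyb5r4 and Rpl26-ps2 (0.12 each), and Vax2 to Gpr84 and Ercc5 (0.10 each). For Rax the nearest were Vmn1r227 (0.40) and Plg (0.42), each well above background on 3 arrays only, and Gpr84 on 2. None of the 9 genes was among the nearest of another.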

How the data were processed

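RNA of 8 cultures (50 ng each, labelled with Cy3) was read on Agilent arrays, 1 slide scanned once, and Agilent Feature Extraction (version 10.7.3.1 in the headers) gave the values. The deposited intensity is background-subtracted and detrended per the file headers, with well-above-background flags set by that software; these other columns are the authors' deposited flags. The authors' table holds a signal equal to that intensity divided by 1 constant per array. Its scale is linear. Probe coordinates are mm9 per the file headers; exon or UTR position was not used here. Column 1 of the slide held the shRNA cultures and column 2 the miRNA cultures. Rows 1 and 2 held P0, and rows 3 and 4 held P2. The number of arrays limits the precision, and no label says whether cultures were independent, so p-values measure only the spread between these samples.

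Control spots and 1104 outlier spots were left out. log2 intensity minus the array's log2 75th percentile was used, and a gene was tested if its brightest probe passed the well-above-background flag on 2 or more of the 8 arrays. limma 3.58.1 in R 4.3.3 was fitted on 27120 genes with condition and passage (3 residual degrees of freedom, 2.19 prior), and again with interactions (1 residual, 3.03 prior). Adjusted p under 0.05 (two-sided) was called. Single arrays were compared without a test, at a 2-fold limit. A dim probe was set at its own signal or, if higher, at the dimmest flagged signal of that array. The fit was run on simulated data with 1 common spread, set below the fitted one. That checks the code and not how the fit performs on these arrays.

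The members and lists were chosen with earlier results of these data known, and genes named beside the members were the largest differences of each list and the nearest profiles; some of these are not reported here. Alternatives were normexp (offset 50), quantile normalization, the authors' table, the mean of probes, other filters, fold limits of 1.5 and 3, left-out arrays and conditions, no block, and the other control.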

Additional observations from a re-analysis of the deposited data

Results flagged for a closer look

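Vax1 moved in opposite directions with passage in the 2 miRNA cultures. It was 1.28 higher at P2 than at P0 on the log2 scale with miR-17 and 1.25 lower (-1.25) with control miRNA, 1 pair of arrays each. In limma's interaction of miR-17 with passage, which pools the 2 control cultures, the value for Vax1 was 2.16 (SE 0.75, adjusted p = 0.9998), not called; the difference between these 2 cultures alone was not tested.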

How the results depend on the processing

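Passage was called for 1348 genes and 2 of the 9. These counts became 7013 and 4 with normexp, 3653 and 4 with the filter on all 8 arrays, 13739 and 4 in the miRNA conditions only, 0 and 0 in the shRNA or the control conditions only, and 4783 genes without both Nr2f1/2 shRNA arrays. Without a condition block 3908 genes were called. Of the 9, quantile normalization left 1 and no filter 0. Leaving out 1 array gave 0 to 4783 genes and 0 to 3 of the 9. With the block this amounts to leaving out its pair. Vax1 with passage turned from 0.45 to -0.16 without either or both Nr2f1/2 shRNA arrays and to -0.88 in the control conditions only, and ran from -0.16 to 1.01 over the single left-out arrays. The control vectors had 2 calls with the filter on all 8 arrays and 0 otherwise.

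Genes past 2-fold were 600 for the knockdown at P0 and 4345 at P2, 1161 for miR-17 at P0 and 604 at P2, and 4454 and 5402 between controls. In that order, normexp gave 114, 2893, 335, 147, 1976 and 3147, the 1.5-fold limit 2358, 9432, 5323, 2910, 9324 and 10861, and the 3-fold limit 137, 1807, 186, 78, 1923 and 2146. The other control, added after the data were seen, gave 4219, 8461, 5295 and 4333 for the first 4. Of the 9 genes, the 7 at P2 in the knockdown became 4 at 3-fold and 4 with the other control, and the 1 at P0 became 3 with the other control. The 5 with miR-17 at P0 became 2 at 3-fold and 3 with the other control, and the 0 at P2 became 1 at 1.5-fold, 1 with the mean of probes and 3 with the other control. Between controls the 4 at P0 became 2 at 3-fold, and the 3 at P2 became 1 with normexp, 5 at 1.5-fold and 1 at 3-fold.

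Single-array differences of the 9 moved by no more than the gene's residual SD in 206 of 216 planned comparisons and 14 of 36 with the other control. Many of the 216 could hardly move. The authors' table only rescales each array, and the mean of probes repeats the value of a gene with a single probe. The limit was also wide for some genes. Six6 with miR-17 at P0 went from -4.04 to -2.52 after normexp and stayed within its residual SD of 1.81. The 206 therefore do not measure how stable the differences are. Passage differences of the 9 kept direction and side of the threshold in 137 of 171. Among these, the left-out arrays of a condition repeat one another. The passage fit is paired by condition, and its form without that block is given above; the labels give no replicate numbers for another pairing.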
